A study of Mus musculus with 16 samples.

Results

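A set of 10 genes of the interleukin-6 (IL-6) family and its signalling route through STAT3 were followed across 16 arrays of mouse colon mucosa. They are the ligand genes Il6, Il11, Osm, Lif and Csf3, the receptor genes Il6ra, Osmr and Il6st, the transcription factor gene Stat3 and the feedback inhibitor gene Socs3. The 10 members were chosen by gene symbol, and each had 1 row among the 30748 genes that could be tested. IL-6 family ligands bind a receptor chain of their own and then a shared chain, gp130, which Il6st encodes. Janus kinases held by these chains phosphorylate STAT3, which enters the nucleus and switches on its targets, among them Socs3, whose product binds gp130 and the kinases and stops the signal. In the gut the route is known for epithelial repair after injury, for its part in colitis and for tumour growth. The arrays measured messenger RNA only, so phosphorylation of STAT3 and secreted cytokine were not measured.

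All mice were male C57BL/6J animals with both Mcc alleles floxed (Mcc f/f), started on their diet at 6 weeks of age and kept on it for 10 weeks. The wild-type (WT) mice were siblings without Cre. The knockout (KO) mice also carried a villin-cre transgene, which deletes Mcc in intestinal epithelial cells and leaves the gene in the other cells of the mucosa. There were 6 arrays of WT mice and 3 of KO mice on control feed, from normal proximal colon mucosa, and 3 arrays of WT mice and 4 of KO mice given feed with sulindac at 320 ppm, a non-steroidal drug against pain and inflammation. The sulindac arrays held inflamed mucosa only and are called lesions here. Drug and choice of inflamed tissue cannot be told apart, and no label says whether the arrays of a group come from separate animals, so p-values measure the spread between these arrays.

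Values are log2 expression after RMA, a method that corrects background, normalises arrays to each other and sums up the probes of a transcript. A gene is called where the limma adjusted p over all 30748 genes was under 0.05, and ± gives the SD. Mcc was 7.06 to 7.35 in the control mucosa and 7.09 to 7.40 in the lesions of WT mice, and 6.43 to 6.71 in the control mucosa and 6.39 to 6.47 in the lesions of KO mice, so every KO array lay below every WT array. The mean of 11 epithelial markers was 11.79 to 11.94 in controls, 11.67 to 11.82 in WT lesions and 11.67 to 11.85 in KO lesions. The mean of 8 neutrophil markers was 4.45 to 4.80 in controls, 7.15 to 7.81 in WT lesions and 8.15 to 9.90 in KO lesions. The mean of 9 monocyte and macrophage markers was 5.70 to 6.15 in controls, 7.63 to 7.91 in WT lesions and 7.90 to 8.30 in KO lesions. For 7 fibroblast markers the mean was 5.79 to 6.21 in controls, 7.19 to 7.39 in WT lesions and 7.10 to 7.51 in KO lesions, and for 7 T cell markers it was 5.18 to 5.45, 5.64 to 5.87 and 5.61 to 5.97. All 8 neutrophil and all 9 monocyte and macrophage markers were called higher in lesions of each genotype, as were 6 of 7 fibroblast markers, and T cell markers were called in 4 of 7 cases in WT and 6 of 7 in KO. Of the epithelial markers 1 was higher and 2 lower in WT lesions, and 5 were higher and 3 lower in KO lesions. Of all genes, 6.96% were called higher and 8.35% lower in WT lesions, and 8.96% and 12.1% in KO lesions. The part of these cells in the changes below was not tested, and in bulk mucosa more cells of a type and more RNA per cell cannot be told apart.

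Promoter sequence was found for 8 of the 10 members in the RefSeq table of GRCm38.p6, with 9 windows from 250 bases before to 50 after the gene start. The windows were searched for a STAT motif, TTCNNNGAA, which reads the same on either strand, and for an NF-kB motif on either strand (GGG, any 2 bases, then TTTCC). Socs3 held the only STAT match among the members and Il6 the only NF-kB match, and no member window held both. The Socs3 match began 154 bases before the start and the Il6 match 44 bases before it. Of 32851 windows of this length in the table, 8.3% held the STAT motif and 1.63% the NF-kB motif. Among the STAT3 target genes described below, 26 of 30 had windows, 32 in all. The STAT motif was found in 4 of these windows and 4 genes, and the NF-kB motif in 6 windows and 5 genes. The 250 bases before the start are shown for the 2 members with a match, in capitals, and for Osmr, the member with the largest change, which held neither motif. A match is a string of letters and not a site shown to be bound.
Il6 (chr5:30012864-30013113, + strand): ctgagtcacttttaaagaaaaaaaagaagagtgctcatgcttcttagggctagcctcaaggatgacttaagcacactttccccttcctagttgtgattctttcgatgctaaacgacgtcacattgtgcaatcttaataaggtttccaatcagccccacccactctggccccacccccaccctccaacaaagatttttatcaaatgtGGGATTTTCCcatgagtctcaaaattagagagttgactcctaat
Socs3 (chr11:117969367-117969616, - strand): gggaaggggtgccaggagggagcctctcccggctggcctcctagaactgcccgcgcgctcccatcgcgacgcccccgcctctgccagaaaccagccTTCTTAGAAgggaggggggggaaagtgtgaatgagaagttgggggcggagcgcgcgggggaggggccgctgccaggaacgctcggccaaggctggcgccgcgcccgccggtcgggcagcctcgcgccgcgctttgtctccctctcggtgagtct
Osmr (chr15:6874314-6874563, - strand): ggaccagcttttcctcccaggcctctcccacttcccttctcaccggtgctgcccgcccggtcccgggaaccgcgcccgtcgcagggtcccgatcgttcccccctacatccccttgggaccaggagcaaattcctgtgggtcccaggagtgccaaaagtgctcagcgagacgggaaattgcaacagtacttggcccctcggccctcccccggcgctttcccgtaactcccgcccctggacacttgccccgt

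In WT mice, lesions had more RNA of Il6, Il11, Lif, Osmr, Stat3 and Socs3 than control mucosa. Osmr, the receptor chain for oncostatin M, had the largest change, to a 9.47-fold higher level. In KO mice the same comparison called these 6 genes and Osm and Il6ra as well. In WT mice 6 of 10 members were called higher and 0 lower, beside 6.96% of all genes called higher and 8.35% called lower. In KO mice 8 of 10 were called higher and 0 lower, beside 8.96% and 12.1% of all genes. The median change of the members was 0.50 in WT and 0.83 in KO on the log2 scale, and that of all genes was -0.06 and 0.01. Each lesion array lay above each control array of its genotype for 7 of 10 members in WT mice, where 8.13% of all genes did so, and for 9 of 10 in KO mice, where 12.6% did.

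**Figure D1:**
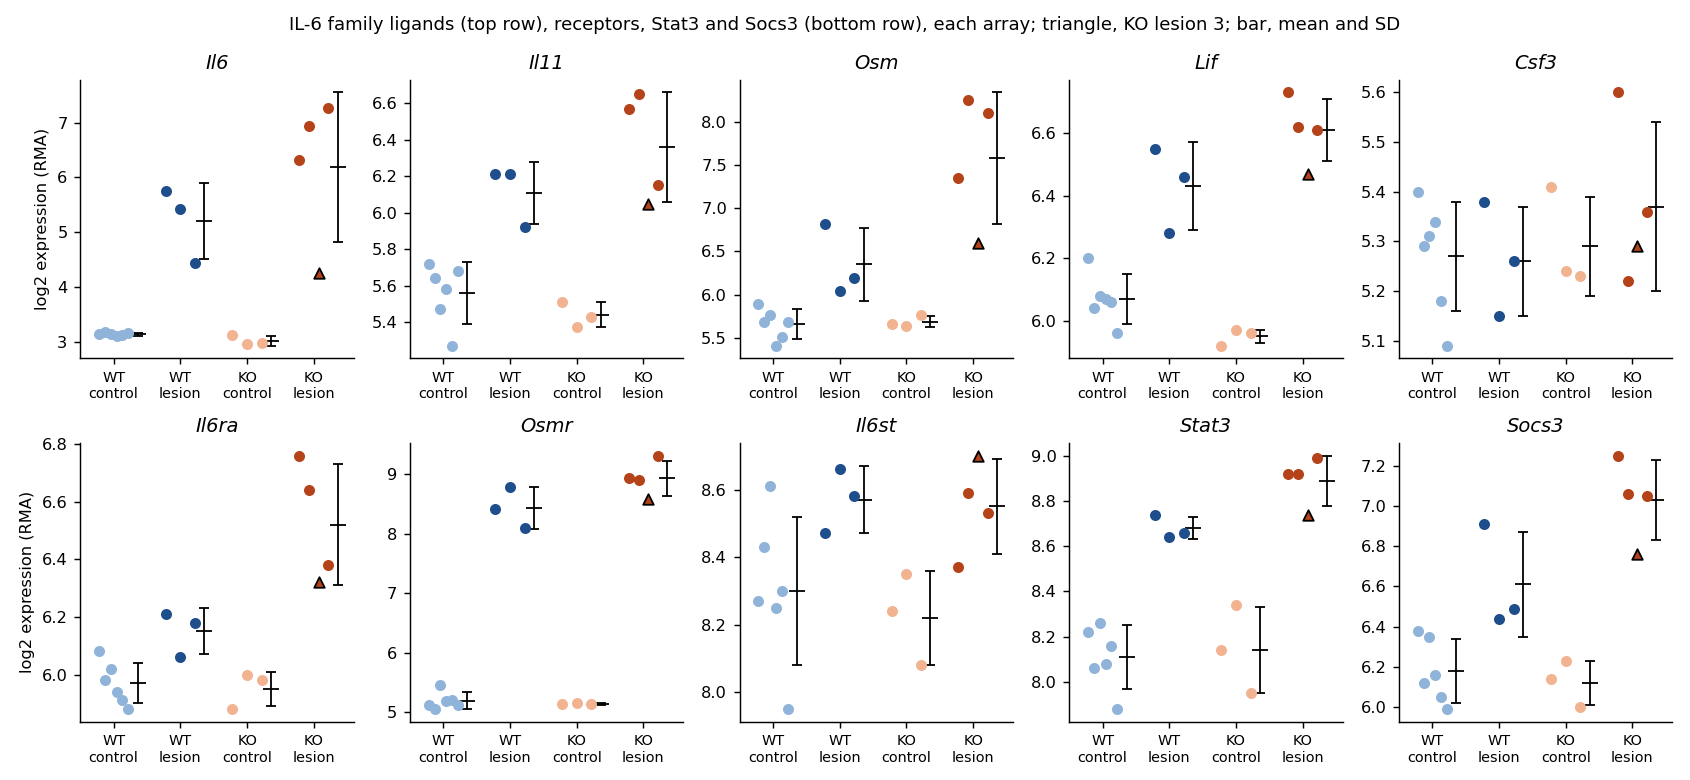
Log2 expression (RMA) of the 10 members in each array, by genotype and diet (6 WT control, 3 WT lesion, 3 KO control and 4 KO lesion arrays). Bars give the mean and SD, the triangle marks KO lesion array 3, and each panel has its own axis range. Osmr separates lesions from controls by the widest margin, and Il6 and Osm spread most within the KO lesions.

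Among the ligands, Il6, an inflammatory cytokine made by myeloid and stromal cells, was flat in controls. It lay between 3.10 and 3.18 in WT controls with a median of 3.14, and at 3.13, 2.96 and 2.98 in KO controls. It was 5.75, 5.43 and 4.43 in WT lesions and 6.31, 6.94, 4.25 and 7.27 in KO lesions. Every lesion array was above every control array, while the third KO lesion was below all 3 WT lesions. The means were 3.14 ± 0.03 (n = 6) and 5.20 ± 0.69 (n = 3) in WT controls and lesions, and 3.02 ± 0.09 (n = 3) and 6.19 ± 1.36 (n = 4) in the KO groups. The log2 rise was 2.07 (SE 0.46, limma adjusted p = 0.0058) in WT and 3.17 (SE 0.50, limma adjusted p = 2.73e-04) in KO. The Il6 values of controls lay under the array medians of 4.90 to 5.05, where RMA compresses differences and gives no detection call.

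Il11 encodes a ligand that stromal cells release in injured mucosa. It was 5.27 to 5.72 in the control mucosa (median 5.61) and 6.21, 6.21 and 5.92 in the lesions of WT mice, and 5.51, 5.37 and 5.43 in the control mucosa and 6.57, 6.65, 6.05 and 6.15 in the lesions of KO mice. Lesions and controls did not overlap in either genotype. It rose by 0.55 (SE 0.13, limma adjusted p = 0.0086) in WT and by 0.92 (SE 0.14, limma adjusted p = 2.29e-04) in KO. Without WT lesion array 2 the WT rise was 0.51 with an adjusted p of 0.0504.

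Osm encodes oncostatin M, a ligand that myeloid cells and T cells make and that binds the OSMR chain with gp130. Its level was 5.41 to 5.89 in the control mucosa (median 5.69) and 6.82, 6.04 and 6.19 in the lesions of WT mice, and 5.66, 5.64 and 5.76 in the control mucosa and 7.35, 8.25, 6.60 and 8.10 in the lesions of KO mice. Each WT lesion was above each WT control, yet the difference of 0.69 (SE 0.27) had a limma adjusted p of 0.1092 and was not called. In KO mice Osm rose by 1.89 (SE 0.30, limma adjusted p = 2.64e-04). The mean was 7.58 ± 0.76 (n = 4) in KO lesions, which spread over 1.66 log2 units, against 5.69 ± 0.06 (n = 3) and 0.12 units in KO controls.

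Lif encodes leukaemia inhibitory factor, which signals through LIFR and gp130. It was 5.96 to 6.20 in the control mucosa (median 6.07) and 6.55, 6.28 and 6.46 in the lesions of WT mice, and 5.92, 5.97 and 5.96 in the control mucosa and 6.73, 6.62, 6.47 and 6.61 in the lesions of KO mice. The groups did not overlap by diet, but the rise was small, at 0.37 (SE 0.07, limma adjusted p = 0.0022) in WT and 0.65 (SE 0.08, limma adjusted p = 2.21e-05) in KO. Csf3 encodes granulocyte colony-stimulating factor, a related cytokine that drives neutrophil production through a receptor of its own. It was 5.09 to 5.40 in the control mucosa (median 5.30) and 5.38, 5.15 and 5.26 in the lesions of WT mice, and 5.41, 5.24 and 5.23 in the control mucosa and 5.60, 5.22, 5.29 and 5.36 in the lesions of KO mice. These groups overlapped, and the differences were -0.00 (95% interval -0.20 to 0.19) in WT and 0.07 (-0.13 to 0.28) in KO.

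Of the receptors, Osmr had the largest change of the 10 members in each genotype. It was 5.05 to 5.46 in the control mucosa (median 5.15) and 8.41, 8.79 and 8.10 in the lesions of WT mice, and 5.13, 5.16 and 5.13 in the control mucosa and 8.94, 8.91, 8.58 and 9.31 in the lesions of KO mice. Lesions lay more than 2 log2 units above every control array, a gap wider than the spread of any group. The means were 5.19 ± 0.14 (n = 6) and 8.43 ± 0.35 (n = 3) in WT, and 5.14 ± 0.02 (n = 3) and 8.93 ± 0.30 (n = 4) in KO. The log2 rise was 3.24 (SE 0.15, limma adjusted p = 3.54e-09) in WT and 3.79 (SE 0.16, limma adjusted p = 1.08e-09) in KO, which is 9.47-fold and 13.9-fold. The controls lay just above the array medians, where RMA compresses differences, so these folds are uncertain. Il6ra encodes the chain that binds IL-6 itself. It was 5.88 to 6.08 in the control mucosa (median 5.96) and 6.21, 6.06 and 6.18 in the lesions of WT mice, and 5.88, 6.00 and 5.98 in the control mucosa and 6.76, 6.64, 6.32 and 6.38 in the lesions of KO mice. WT lesions and WT controls overlapped, with a difference of 0.18 (SE 0.09, limma adjusted p = 0.1885), while in KO mice it rose by 0.57 (SE 0.09, limma adjusted p = 4.25e-04). Il6st, the shared gp130 chain, was 7.95 to 8.61 in the control mucosa (median 8.28) and 8.47 to 8.66 in the lesions of WT mice, and 8.08 to 8.35 in the control mucosa and 8.37 to 8.70 in the lesions of KO mice. Its differences of 0.27 (SE 0.12, limma adjusted p = 0.1405) and 0.32 (SE 0.12, limma adjusted p = 0.0828) were not called, although the KO lesions all lay above the KO controls. Without WT control array 3 the WT difference of Il6st was 0.33 with an adjusted p of 0.0493.

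Stat3 was 7.88 to 8.26 in the control mucosa (median 8.12) and 8.74, 8.64 and 8.66 in the lesions of WT mice, and 8.14, 8.34 and 7.95 in the control mucosa and 8.92, 8.92, 8.74 and 8.99 in the lesions of KO mice. No lesion overlapped a control, and the 3 WT lesions lay within 0.09 of each other. The log2 rise was 0.57 (SE 0.09, limma adjusted p = 5.31e-04) in WT and 0.75 (SE 0.10, limma adjusted p = 6.82e-05) in KO. Socs3 was 5.99 to 6.38 in the control mucosa (median 6.14) and 6.91, 6.44 and 6.49 in the lesions of WT mice, and 6.14, 6.23 and 6.00 in the control mucosa and 7.25, 7.06, 6.76 and 7.05 in the lesions of KO mice. The groups were apart by diet in each genotype, narrowly so in WT. Socs3 rose by 0.44 (SE 0.12, limma adjusted p = 0.0237) in WT and by 0.91 (SE 0.13, limma adjusted p = 1.48e-04) in KO. Without WT lesion array 1 the WT rise of Socs3 was 0.29 with an adjusted p of 0.1451.

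**Figure D2:**
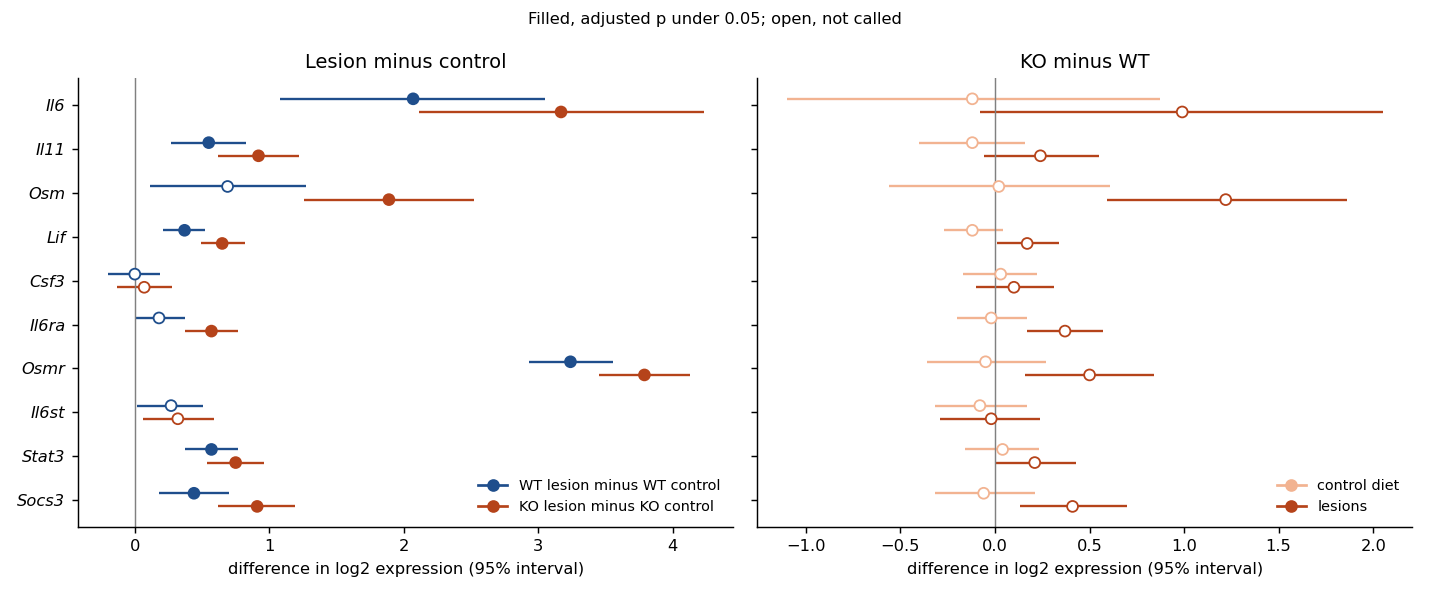
Differences in log2 expression of the 10 members with 95% intervals, on the left for lesions minus controls in WT and KO mice and on the right for KO minus WT on the control diet and in lesions. Filled points have an adjusted p under 0.05: 6 in WT lesions, 8 in KO lesions and 0 between genotypes.

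The sample descriptions carry numbers in a lower and a higher series. All lesions and the first 3 WT controls are in the lower series, and the KO controls are in the higher, so diet and series cannot be told apart within KO mice. Within the lower series, the WT differences were 3.22 for Osmr and 0.50 for Stat3, and both were called (limma adjusted p = 3.45e-05 and 0.0065). In that fit the other 4 lost their call, at 2.05 for Il6 (0.0754), 0.51 for Il11 (0.0822), 0.33 for Lif (0.0568) and 0.33 for Socs3 (0.2069), each adjusted p in parentheses. With the series as a covariate, Socs3 lost its call in WT (adjusted p = 0.1262) and Il6ra in KO (0.45, adjusted p = 0.0561), and the other calls of members in lesions against controls held. Calls over all genes fell as well, from 4708 to 2974 in WT within the lower series. With the covariate they fell from 4708 to 4114 in WT and from 6464 to 2507 in KO.

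The wider IL-6 family was described by 16 further ligand and receptor genes, of which 12 were measured. Called were 2 higher and 1 lower in WT lesions, beside 6.96% and 8.35% of all genes. In KO lesions 3 were called higher and 0 lower, beside 8.96% and 12.1% of all genes. The count of 1 of 12 called lower in WT is near the share of all genes. A pair of receptor genes rose in each genotype. Csf3r, the receptor of granulocyte colony-stimulating factor, which neutrophils carry, was 4.89 to 5.25 in the control mucosa and 6.88, 6.58 and 6.29 in the lesions of WT mice, and 5.03, 5.11 and 5.07 in the control mucosa and 8.23, 8.46, 7.17 and 7.90 in the lesions of KO mice. It rose by 1.53 (SE 0.20, limma adjusted p = 9.33e-05) in WT and 2.87 (SE 0.22, limma adjusted p = 3.23e-07) in KO. Lesions and controls were far apart, and all KO lesions were above all WT lesions. Lifr, the partner chain for LIF, rose by 0.78 (SE 0.13, limma adjusted p = 7.77e-04) in WT and 0.80 (SE 0.14, limma adjusted p = 7.97e-04) in KO. Its control means of 4.71 in WT and 4.72 in KO lay under the array medians. In WT, Il31, a ligand that T helper cells make, fell by 0.18 (SE 0.06, limma adjusted p = 0.0405), with means of 4.03 and 3.85 that lay under the array medians. That call was lost with the replicate block (adjusted p = 0.1117), with the series as a covariate (0.0709), in the lower series alone (0.1490), with arrays centred on their medians (0.2099) and without WT control array 2, 3, 4 or 6 or any WT lesion array (0.0609 to 0.1425). In KO, Ebi3, a subunit of interleukin-27, rose by 0.42 (SE 0.09, limma adjusted p = 0.0030). The median over the 12 genes was -0.03 in WT and 0.09 in KO, near that of all genes. The other listed genes were not analysed here.

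Of 10 Janus kinase and other STAT genes, 8 were measured. Called higher were 3 in WT lesions, beside 6.96% of all genes, and 5 in KO lesions, beside 8.96%. Called lower were 0 in either, beside 8.35% and 12.1% of all genes. Jak2, a kinase that gp130 receptors use, was 8.76 to 8.99 in the control mucosa and 9.01, 9.47 and 9.23 in the lesions of WT mice, and 8.81, 8.61 and 8.72 in the control mucosa and 9.86, 9.72, 9.35 and 9.88 in the lesions of KO mice. It rose by 0.37 (SE 0.12, limma adjusted p = 0.0394) in WT and 0.99 (SE 0.13, limma adjusted p = 4.09e-05) in KO. The WT groups were almost touching, and the KO groups were clearly apart. The WT call of Jak2 was lost with the replicate block (adjusted p = 0.1450), with the series as a covariate (0.1493), in the lower series alone (0.2416) and without WT control array 3, 4, 5 or 6 or WT lesion array 2 or 3 (0.0611 to 0.2372). Stat2, which acts in the type I interferon response, rose by 1.16 (SE 0.15) and 1.07 (SE 0.17), and Stat4, which acts downstream of interleukin-12, by 1.07 (SE 0.20) and 1.10 (SE 0.22), in WT and KO in that order. The control means of Stat4, 4.17 in WT and 4.43 in KO, lay under the array medians. In KO lesions Jak1 rose by 0.29 (SE 0.10, limma adjusted p = 0.0424) and Stat6 by 0.28 (SE 0.08, limma adjusted p = 0.0173). Without KO control array 3, 3 of the 8 were called in KO, with Jak1 at 0.19 (adjusted p = 0.2119) and Stat6 at 0.22 (0.0910). The call of Jak1 was also lost without KO control array 1 or KO lesion array 1, 2 or 4 (adjusted p 0.0613 to 0.1080).

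Among negative regulators of the route other than Socs3, 15 of 16 were measured. Called were 1 higher and 1 lower in WT lesions, beside 6.96% and 8.35% of all genes, and 4 higher and 2 lower in KO lesions, beside 8.96% and 12.1%. Ptpn1, a phosphatase that acts on Janus kinases, rose by 0.60 (SE 0.11, limma adjusted p = 0.0017) in WT and 0.83 (SE 0.12, limma adjusted p = 1.50e-04) in KO. Socs2, a regulator of growth hormone signalling, was 6.50 to 6.67 in the control mucosa and 6.00, 5.91 and 5.92 in the lesions of WT mice, and 6.66, 6.39 and 6.65 in the control mucosa and 6.01, 6.11, 6.04 and 5.93 in the lesions of KO mice. It moved against Socs3 and fell by 0.63 (SE 0.07, limma adjusted p = 1.63e-05) in WT and by 0.54 (SE 0.07, limma adjusted p = 7.90e-05) in KO. In KO lesions Socs1 (0.54), Ptpn6 (0.53) and Ptpn11 (0.40) were also called higher and Pias2 (-0.55) lower. Socs1 lost its call without KO control array 2 (0.49, adjusted p = 0.0515) and Pias2 without KO control array 1 (-0.47, adjusted p = 0.0902).

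Genes known as STAT3 targets rose in part. Of 30 listed, 28 were measured. Called higher were 14 in WT lesions, beside 6.96% of all genes, and 15 in KO lesions, beside 8.96%. Called lower were 0 in either, beside 8.35% and 12.1% of all genes. The median change of the 28 was 0.51 in WT and 0.74 in KO, beside -0.06 and 0.01 for all genes. Many of these genes also answer to other factors, such as NF-kB. The largest rises were those of Reg3b and Reg3g, antimicrobial lectins of the epithelium. Reg3b was 6.29 to 11.49 in the control mucosa and 13.33, 13.26 and 12.54 in the lesions of WT mice, and 9.98, 7.61 and 8.35 in the control mucosa and 13.40, 11.84, 12.95 and 12.71 in the lesions of KO mice. The controls varied widely, over more than 5 log2 units in WT, and still lay below all lesions. The rise was 4.84 (SE 0.94, limma adjusted p = 0.0021) in WT and 4.08 (SE 1.01, limma adjusted p = 0.0085) in KO. Reg3g rose by 4.47 (SE 0.58) and 4.06 (SE 0.63), and Il1rn, the interleukin-1 receptor antagonist, by 2.39 (SE 0.29) and 2.81 (SE 0.31). Lrg1, a secreted acute-phase glycoprotein, rose by 1.77 (SE 0.28) and 1.82 (SE 0.31), and Il4ra, a receptor chain for interleukin-4, by 1.60 (SE 0.14) and 2.25 (SE 0.15).

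The listed targets that were not called include classical ones. Myc, a growth regulator, differed by 0.42 (SE 0.25) in WT and -0.23 (SE 0.27) in KO. Saa1, an acute-phase gene, differed by -0.53 (SE 0.28) and -0.22 (SE 0.30), and Mcl1, a survival gene, by -0.13 (SE 0.09) and 0.14 (SE 0.10). Bcl2l1, another survival gene, was called in KO (0.46) and not in WT (0.21). With the number series as a covariate, 2507 of all 30748 genes were called in the KO response, against 6464 in the main fit. The KO count of called genes was then 1 for the other IL-6 family genes and 2 for Janus kinases and STATs. It was 2 for negative regulators and 13 for STAT3 targets, where Reg3b (adjusted p = 0.1348) and Bcl2l1 (0.0895) lost their call. Lifr (0.0555), Ebi3 (0.3013), Jak1 (0.6972), Stat4 (0.1073) and Stat6 (0.5041) lost theirs too. So did the negative regulators Socs1 (0.2588), Pias2 (0.2582), Ptpn6 (0.0703) and Ptpn11 (0.5268).

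**Figure D3:**
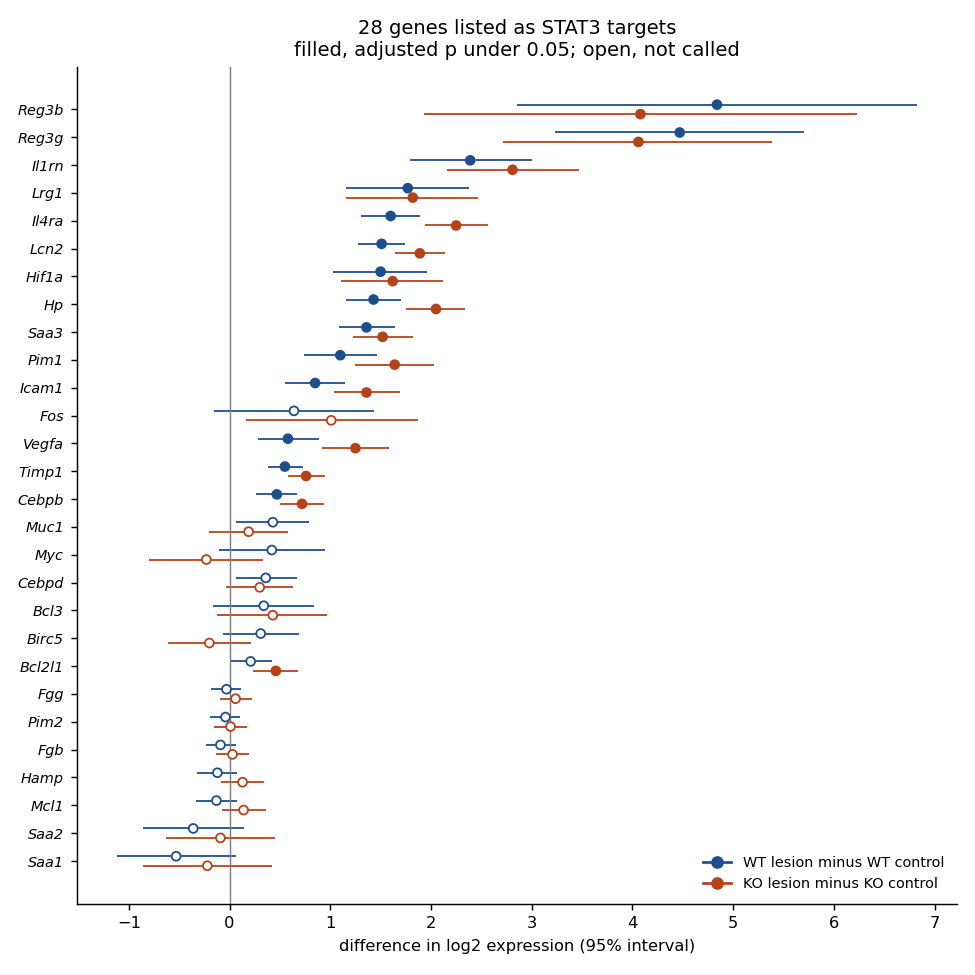
Differences in log2 expression between lesions and controls, with 95% intervals, for 28 genes listed as STAT3 targets in WT and KO mice. Filled points have an adjusted p under 0.05 (14 in WT and 15 in KO). Reg3b and Reg3g have the largest changes and the widest intervals, and the genes at the bottom of the plot lie around 0.

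On the control diet the genotypes were not told apart at any member. The count of called members was 0 of 10, and 0% of all genes were called with limma, while 647 genes and 0 members had an unadjusted p under 0.05. The largest difference, KO minus WT, was -0.12 for Il6, Il11 and Lif. The 95% interval was narrow for Stat3 (-0.16 to 0.23) and wide for Il6 (-1.10 to 0.87), since the spread is pooled with that of the lesions. WT and KO control arrays overlapped for all 10 members. Mcc itself differed by -0.60 (SE 0.08, limma adjusted p = 0.0831) and was not called, although all its KO controls lay below its WT controls. The absence of calls therefore does not show that the genotypes are alike.

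Between lesions, KO means were above WT means for 9 of 10 members, with differences largest for Osm and Il6, but no member passed the threshold. With limma, 0 of 10 members were called, beside 0.306% of all genes. An unadjusted p under 0.05 was found for 6 members and for 4134 of all 30748 genes. Osm was 1.22 higher in KO lesions (95% interval 0.59 to 1.86, limma adjusted p = 0.1017), Il6 0.99 (-0.08 to 2.05, 0.4065), Osmr 0.50 (0.16 to 0.84, 0.2061), Socs3 0.41 (0.13 to 0.70, 0.2098) and Il6ra 0.37 (0.17 to 0.57, 0.1174). Il6ra was the only member whose KO lesions all lay above the WT lesions, as they did for 5.49% of all genes. The interval for Il6st was -0.29 to 0.24 and that for Csf3 -0.10 to 0.31. The test of whether the lesion change itself differed by genotype called 0 of 10 members, beside 0.00325% of all genes. Here 5 members and 3425 of all 30748 genes had an unadjusted p under 0.05. The difference between the changes was 1.20 (SE 0.40, limma adjusted p = 0.4066) for Osm and 1.10 (SE 0.68, limma adjusted p = 0.5094) for Il6.

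This outcome changed when the third KO lesion array was left out. That array was the lowest KO lesion for 8 of 10 members, for 48.2% of the genes called higher in KO lesions and for 28.8% of all genes. Its mean of the 8 neutrophil markers was 8.15, while the other KO lesions had 9.09, 9.90 and 9.76 and the WT lesions 7.81, 7.80 and 7.15. Without it, 5 of 10 members were called higher in KO than in WT lesions, beside 5.5% of all genes called in either direction. These were Il6 (1.64, SE 0.26, limma adjusted p = 0.0029), Osm (1.55, SE 0.22, 0.0011), Osmr (0.62, SE 0.15, 0.0296), Il6ra (0.44, SE 0.09, 0.0130) and Socs3 (0.50, SE 0.13, 0.0381). Without that array the lesion change also differed by genotype for Il6 (1.75, SE 0.35, limma adjusted p = 0.0235) and Osm (1.53, SE 0.29, 0.0190), beside 1.66% of all genes. No label gives a reason to leave that array out. A gap test for an outlying array flagged 0 of 22 groups, the WT controls and the KO lesions for each member and Mcc. With so few KO lesions that test can flag only an extreme gap, so it does not show that the array is like the others. Leaving out the lowest array raises the KO mean by construction, so the calls made without it are no separate support.

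**Figure D4:**
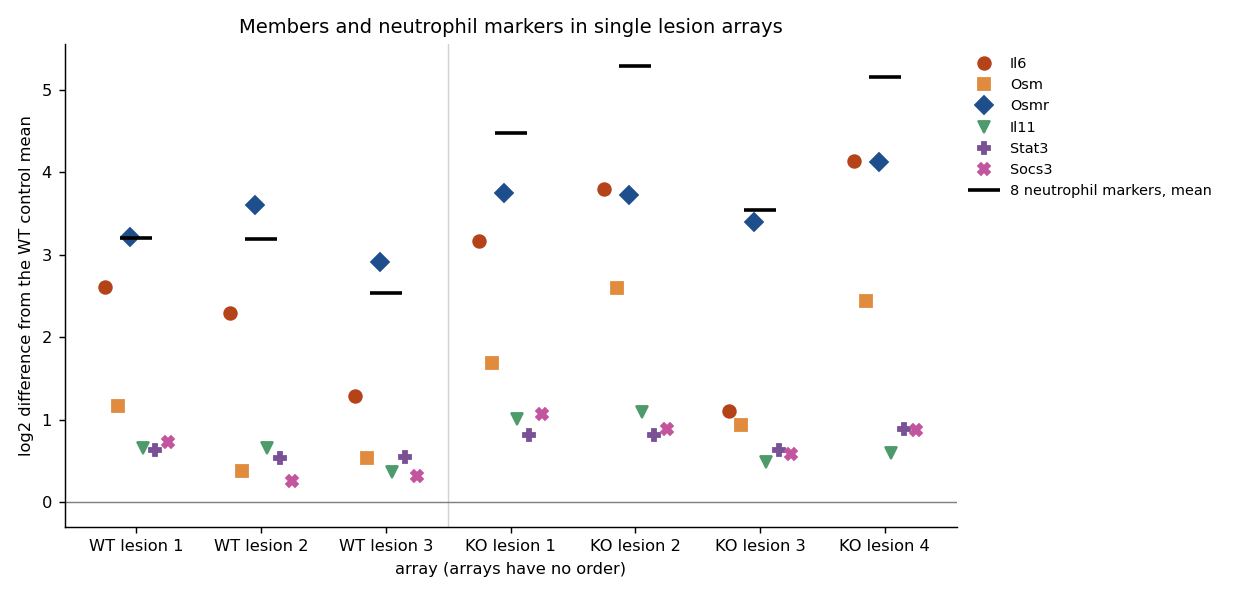
Log2 difference of 6 members, and of the mean of 8 neutrophil markers, from the WT control mean in each of the 3 WT and 4 KO lesion arrays. In KO lesion array 3, Il6 lies below and Osm within the range of the WT lesions, and the neutrophil marker mean is the lowest of the KO lesions.

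Csf3r was the only gene of the 4 pathway lists called between lesions, 1.36 higher in KO (SE 0.22, limma adjusted p = 0.0252). With the replicate numbers as a block it was 1.38 with an adjusted p of 0.0999, and the call was also lost without WT lesion array 1, 2 or 3 or KO lesion array 1 or 2 (adjusted p 0.0510 to 0.1410). Calls over all genes fell too, from 94 to 2 with the block and to between 4 and 21 without 1 of these arrays. Mcc between lesions was called without the block (-0.79, limma adjusted p = 0.0032) and not with it (-0.82, adjusted p = 0.0757). Neither difference became smaller with the block. The block was fitted across all groups, while the rule for a pairing was met between lesions only. Calls lost with it are therefore no paired test of the lesions. Of the 8 neutrophil markers, 3 were called higher in KO lesions, beside 0.306% of all genes called in either direction. These were Cxcr2 (1.68), Retnlg (2.29) and Trem1 (1.71). All 3 calls were lost with the replicate block (adjusted p 0.1617, 0.1815 and 0.1670 in that order) and when any lesion array other than KO lesion array 3 was left out (adjusted p 0.0727 to 0.2699). Without KO lesion array 4, calls over all genes fell from 94 to 52. Without KO lesion array 3, 7 of the 8 neutrophil markers were called higher in KO lesions. In that fit, where 5.5% of all genes were called, so were Jak2 (0.58) as 1 of 8 Janus kinases and STATs, Ptpn6 (0.53) as 1 of 15 negative regulators, and 5 of 28 STAT3 targets, Pim1 (0.82), Hp (0.67), Icam1 (0.62), Il4ra (0.69) and Vegfa (0.82). The part of neutrophils in the genotype difference of the members was not tested.

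For each member called in both genotypes, the genes closest in pattern were found by the root mean square (RMS) difference of their log2 values over the 16 arrays, each gene taken relative to its WT control mean. Il6 was closest to Hdc, which makes histamine (RMS 0.34), and to Trem1, a receptor of neutrophils and monocytes (RMS 0.38). Hdc was 6.15 to 6.76 in WT lesions and 8.02, 9.04, 6.68 and 8.68 in KO lesions, so the third KO lesion was low here too. Osmr was closest to the interferon-inducible genes Ifi211 (RMS 0.24) and Ifi204 (RMS 0.26), which rose by 3.03 and 2.86 in WT and 3.66 and 3.68 in KO. Il11 was closest to Ptges, a prostaglandin E synthase (RMS 0.13), and to Csf1, the macrophage growth factor (RMS 0.14). Stat3 was closest to Fli1 (RMS 0.09) and Gpd2 (RMS 0.10), Socs3 to Zyx (RMS 0.10) and Map7d1 (RMS 0.11), and Lif to Abcg1 (RMS 0.06) and Csnk1e (RMS 0.07). Members with small changes have small RMS differences by construction, so the values are not compared between members.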

How the data were processed

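RNA of proximal colon mucosa was measured on 16 Affymetrix arrays. The authors deposited log2 values that RMA in Affymetrix Power Tools 1.16.1 gave, per the submitters' processing notes. A genome build for the arrays is not given in the sources used here. Of 72688 rows, 31221 had 1 gene and 1529 several in the platform table, and 39938 were not listed. The RefSeq table of GRCm38.p6 supplied current symbols (866 changed), and for 364 genes with more rows the row with the highest mean was kept, which left 30748 genes. The lowest and highest array medians were 4.90 and 5.05, and the number of arrays limits the precision.

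The labels for genotype and diet gave the groups. The test was limma 3.58.1 (R 4.3.3). A model of 4 group means was fitted to all 16 arrays, with moderated two-sided tests (empirical Bayes) and Benjamini-Hochberg adjustment over all genes in each of 5 comparisons. The fit was tested on simulated data. No 2 arrays of a group were duplicates (r 0.980 to 0.991, at most 0.0289% of values identical). Replicate numbers were taken to pair arrays where the deviations of same-numbered arrays from their group means all correlated above 0.1. Only the lesions of the 2 genotypes met this rule (r 0.464, 0.296 and 0.540). No label pairs these arrays, and arrays with different numbers were not compared, so a pairing was not shown.

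The members and gene lists were chosen with earlier results of these data known. Named are all members, Mcc, the partner receptors and kinases, the 4 largest called changes per pathway list, direction and response, and the 2 genes nearest in pattern to each member called in both genotypes, leaving out Gm and Rik models. Stat6, Bcl2l1, the uncalled STAT3 targets, the neutrophil markers and the genes called only without KO lesion array 3 were chosen after their values were seen. Alternatives were leaving out each array, robust limma-trend, a filter on dim genes, all rows tested, median centring, the replicate block, the number series as covariate, random block or restriction, and a 2-fold rule.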

Additional observations from a re-analysis of the deposited data

How the results depend on the processing

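Leaving out each array in turn gave 5 to 7 called members in the WT response and 8 in the KO response, 0 to 5 between lesions and 0 to 2 for the difference of the changes, with the highest of the last 2 reached without KO lesion array 3. The list counts without 1 array ranged from 0 to 1 for the other IL-6 family genes between lesions, from 3 to 5 for Janus kinases and STATs in the KO response and from 0 to 1 between lesions, from 0 to 1 for negative regulators between lesions and from 0 to 5 for STAT3 targets between lesions. With a 2-fold minimum, 2 members were called in WT and 3 in KO, 1 other IL-6 family gene in each, 2 Janus kinases and STATs in KO, and 0 negative regulators in either. With the number series as a covariate, the KO response held 1 other IL-6 family gene, 2 Janus kinases and STATs and 2 negative regulators. Calls over all genes in the KO response fell from 6464 to 2507 in that fit. In the lower series alone, 2 members were called in WT. Between lesions, the other IL-6 family count of 1 went to 0 with all rows tested, with the replicate block and in the lower series alone. Calls over all genes went from 94 to 5, 2 and 2 in that order. A 2-fold minimum can only remove calls by construction, and the cause of the other shifts was not tested.

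The replicate block gave 5 called members in WT (Socs3 lost, adjusted p = 0.0854), 9 in KO (Il6st gained, 0.0340) and 0 between lesions, and changed no other call of a member. The rule for a pairing was not met in the WT response (r 0.347, 0.171 and 0.097) or the KO response (r -0.145, -0.174 and -0.300). It was also not met between controls (r -0.320, -0.336 and -0.242). The block was still fitted across all groups, so calls lost or gained with it are no paired test. The filter on dim genes kept 19725 genes and left out Il6. No value of a member whose 95% interval left out 0 changed sign. Every member had 1 row, so other rows could not be tried, and the lower series held no KO control. Control values near the array medians (Osmr, Csf3) or under them (Il6) limit what a fold can show.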
